A study of Mus musculus with 4 samples.

Results

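Genes of the Lin28, let-7 and Hmga axis, 8 in number, were followed in mouse E14 embryonic stem cells that carried an shRNA against the endogenous retrovirus MERVL or a random shRNA. They are Lin28a, Lin28b, Trim71, Hmga2, Hmga1, Igf2bp1, Igf2bp2 and Igf2bp3, taken by gene symbol, and all 8 were found among the 43496 Ensembl gene rows of the count table and among the 15735 genes tested. They were chosen by way of Hmga2, which came near the top of this same comparison when genes were ordered by the p of its log2 fold change, so the levels and fold changes of the 8 genes are a description and carry no test. All libraries came from the same line, E14, strain 12910la in the labels, grown on gelatin in serum with LIF. The random shRNA group, with 2 libraries, has wild type as its genotype label, and the MERVL shRNA group, with 2 libraries, is labelled MERVL knocked down. Transfection used 1000 ng of pSuper puro plasmid, and puromycin at 1 µg/ml was applied after 24 h and kept for 4 days. The column headers carry a single name for the MERVL shRNA, MuERVLsh3, and nothing says that replicates were separate cultures, so SEs and p-values cover no more than the spread of these libraries, which may be technical. Where a pair of values is given for a group, replicate 1 comes first.

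LIN28A and LIN28B are RNA-binding proteins that bind let-7 precursor RNA and keep it from being processed. With LIN28A, terminal uridylyl transferases add a tail that marks the precursor for decay. Mature let-7 in turn pairs through its seed with sites in the 3′ UTR of the mRNAs for LIN28, the ubiquitin ligase and mRNA repressor TRIM71, the AT-hook chromatin proteins HMGA1 and HMGA2, and the IGF2BP family of mRNA-binding proteins. Embryonic stem cells are known for high LIN28A and TRIM71 and for little mature let-7, and HMGA2 is known to rise as such cells leave the naive state.

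The let-7 sequences and their matches are shown because they tie the 8 genes together independently of any expression value. The mouse RefSeq table (GRCm38.p6) held 13 mature let-7 family entries, and 12 of them share the seed GAGGUAG at bases 2 to 8. Examples follow, 5′ to 3′, with the seed in capitals.
let-7a-5p, chr13:48538239-48538260, minus strand: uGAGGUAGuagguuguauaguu
let-7d-5p, chr13:48536078-48536099, minus strand: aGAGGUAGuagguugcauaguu
let-7g-5p, chr9:106178846-106178867, plus strand: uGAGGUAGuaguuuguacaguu
miR-98-5p, chrX:151913229-151913250, plus strand: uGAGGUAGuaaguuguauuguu

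The 7-base match to this seed is CTACCTC, and an 8-base match, CTACCTCA, adds the A that lies opposite the miRNA's base 1. These letters were searched on the transcript strand of the longest annotated 3′ UTR of each gene in GENCODE M21 (GRCm38). All 8 genes held at least 1 match, 21 in all, of which 13 were 8-base matches. The sites below are cut from exons of those 3′ UTRs, with 14 bases before the match and 1 after it or its final A, and capitals mark the match. All Hmga2 sites with CTACCTC are shown, and 1 site for each other gene.
Hmga2, chr10:120364224-120364245, minus strand: ccgacattcaatttCTACCTCA
Hmga2, chr10:120362987-120363008, minus strand: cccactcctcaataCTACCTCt
Hmga2, chr10:120362549-120362570, minus strand: tgatttgcaaggaaCTACCTCc
Hmga2, chr10:120361691-120361712, minus strand: atcaaaacacactaCTACCTCt
Lin28a, chr4:134005189-134005210, minus strand: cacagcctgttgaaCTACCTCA
Lin28b, chr10:45381022-45381043, minus strand: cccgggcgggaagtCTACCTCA
Trim71, chr9:114512472-114512493, minus strand: acattgcctaagtcCTACCTCA
Igf2bp1, chr11:95961778-95961799, minus strand: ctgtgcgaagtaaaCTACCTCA
Igf2bp2, chr16:22059473-22059494, minus strand: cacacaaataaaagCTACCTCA
Igf2bp3, chr6:49086787-49086808, minus strand: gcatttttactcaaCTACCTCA
Hmga1, chr17:27563278-27563299, plus strand: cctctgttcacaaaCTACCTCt

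Hmga2 had 4 matches in 3014 nt of 3′ UTR, the highest density of the 8 genes at 1.33 per kb, and 1 of them was an 8-base match. It also had 3 matches to another form of 7 bases, TACCTCA, that lack the leading C. This form was counted apart, and a 7-base match means CTACCTC only throughout the text. Trim71 had 4 matches, all of 8 bases, including a pair that starts at bases 3591 and 3617 of the 3′ UTR. Igf2bp1 and Lin28b had 4 matches each, with 3 and 1 of 8 bases. Lin28a had 2 matches, and Igf2bp2, Igf2bp3 and Hmga1 had 1 each, that of Hmga1 being of 7 bases only. Of 21037 genes with an annotated 3′ UTR, 9.02% held a 7-base match and 12 genes held 4 or more, and 4 of those 12 were Hmga2, Lin28b, Trim71 and Igf2bp1. Among 3925 genes with a 3′ UTR of 2000 to 4000 nt, the share with a match was 16.1%, and 5 genes (0.127%) held 4 or more. The median length of that class, 2701 nt, is close to the 2894.5 nt of the 8 genes. Lin28b, Trim71 and Igf2bp1 lie beyond it, at 4445, 5512 and 6337 nt, and Hmga1 and Igf2bp2 are shorter. The genes were listed as let-7 targets to begin with, so the matches check that label and are not a result of the experiment. A match says nothing of whether let-7 acts there in these cells.

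**Figure D1:**
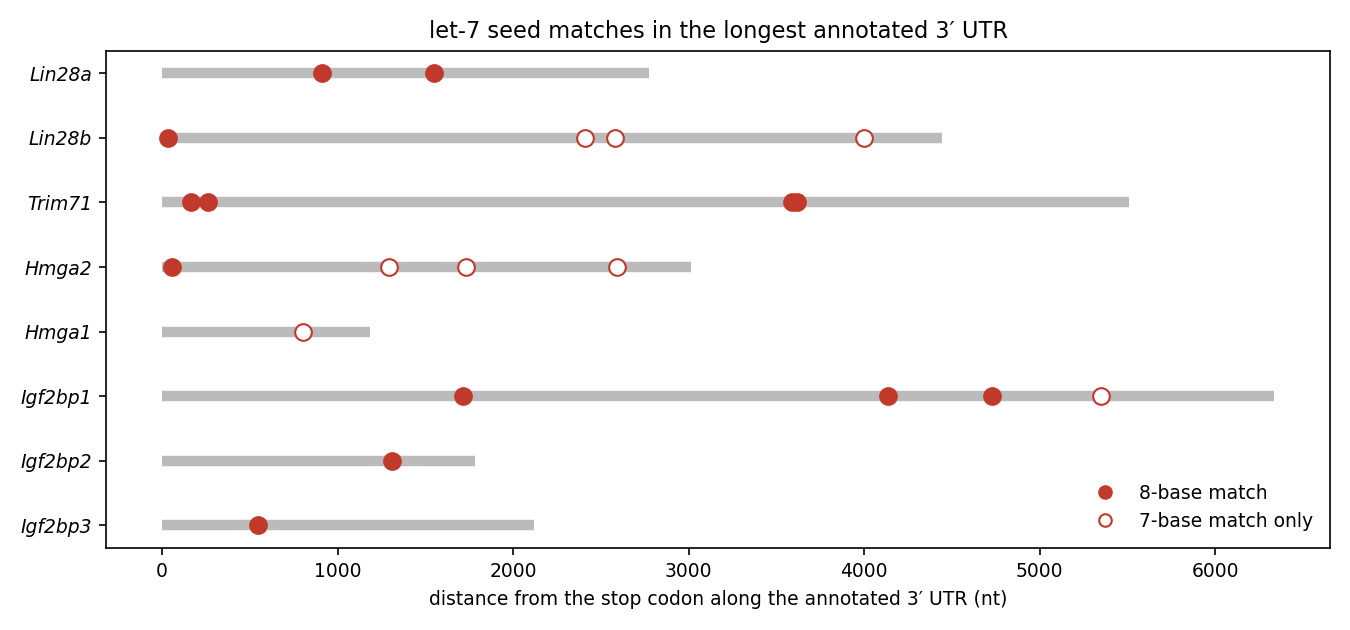
Position of let-7 seed matches (x axis, nt from the stop codon, to scale) in the longest annotated 3′ UTR of each gene (grey bars). Filled circles are 8-base and open circles 7-base matches. Hmga2, Lin28b, Trim71 and Igf2bp1 have 4 each.

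Mature let-7 was not measured, since these are mRNA-seq libraries. The 10 let-7 hairpin loci in the count table had at most 4 estimated counts in any library, and 4 loci were at 0 throughout. Summed, they had 1 and 4 counts with random shRNA, against 10 and 5.5 with MERVL shRNA. That depth does not allow a comparison of precursor RNA.

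The libraries held 15496921 and 11628887 estimated counts with random shRNA, against 16067854 and 14570056 with MERVL shRNA. MERVL itself, summed over 2277 copies, stood at 4662 and 1434 CPM (counts divided by the TMM-scaled size of the library) with random shRNA and at 1163 and 573.8 CPM with MERVL shRNA. Random shRNA replicate 1 thus stood apart, and its 8 markers of 2-cell-like cells summed to 955.5 CPM, against 268 in replicate 2 and 207 and 127 in the MERVL shRNA libraries. Embryonic stem cell markers were high throughout, with 9 markers summing to 7589 to 9707 CPM. The 6 neural progenitor markers summed to 19.2 to 30.4 CPM, 6 of mesendoderm to 8.52 to 16.8 CPM and 6 of primitive endoderm to 15.5 to 20.2 CPM. The 9 fibroblast or feeder markers summed to 716 and 703 CPM with random shRNA, against 660 and 658 CPM with MERVL shRNA, nearly all of it Fn1 (459 to 491 CPM) and Vim (160 to 232 CPM), while Col3a1, Lum, Dcn and Postn were at 0 in every library. Thy1 of that list was at 23.1 and 28.9 CPM with random shRNA, against 8.67 and 6.88 CPM with MERVL shRNA, and was called lower by DESeq2 (adjusted p = 1.44e-05) but not by edgeR (adjusted p = 0.211). In bulk RNA, fewer cells that express a gene and less RNA per cell cannot be told apart.

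Hmga2, an architectural protein that bends AT-rich DNA, was the gene of the 8 with the largest difference between the groups. It lies on chromosome 10 at 120361275 to 120476469, minus strand. It was at 7.69 and 8.22 CPM with random shRNA, against 30.0 and 31.1 CPM with MERVL shRNA. The groups did not overlap, and libraries within each group lay within 1.07-fold of each other, while MERVL RNA differed 3.25-fold between the same random shRNA libraries. Hmga2 was chosen by its p in this comparison, so a large difference with close replicates came with that choice. Means were 7.95 ± 0.375 and 30.6 ± 0.823 CPM (SD, n = 2), a ratio of 3.84 and a log2 fold change of 1.95 ± 0.17 (SE). These values rest on 120.5, 98, 477 and 439 estimated counts. Only 24 of the 15735 genes had a larger log2 fold change, and 4 of those had a mean of at least 5 CPM. With any single library left out, the log2 fold change of Hmga2 was between 1.90 and 2.01. Markers of formative or primed epiblast, 6 in number, summed to 197 and 171 CPM with random shRNA, against 209 and 215.5 CPM with MERVL shRNA, with Fgf5 under 1 CPM. Of these, Otx2 was at 16.8 and 33.2 CPM with random shRNA, against 42.9 and 45.7 CPM with MERVL shRNA (log2 fold change 0.83 ± 0.30, edgeR adjusted p = 0.338). Sox4 was at 27.5 and 29.5 CPM, against 39.6 and 39.0 CPM (0.47 ± 0.14, edgeR adjusted p = 0.329). Both MERVL shRNA libraries thus lay above random shRNA for these markers, as for Hmga2, while they lay below it for Pou3f1 and Dnmt3b and overlapped it for Zic2. The part of these markers in the Hmga2 values was not tested.

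Hmga1, its relative with AT-hooks, is an abundant transcript in embryonic stem cells and lay on the other side. It is on chromosome 17 at 27556497 to 27563674, plus strand. It was at 616 and 459 CPM with random shRNA and at 404 and 421 CPM with MERVL shRNA, with both MERVL shRNA libraries below both random shRNA libraries. Means were 538 ± 111 and 412 ± 12.2 CPM (SD, n = 2), and the log2 fold change was -0.38 ± 0.19 (SE). It was -0.15 without random shRNA replicate 1 and -0.56 without random shRNA replicate 2. The gap between the random shRNA libraries, 1.34-fold, was as large as the ratio between the group means, 1.30. Values of Hmga1 are uncertain, because 69.1% of the 50-base windows of its longest transcript also occur in the copy Hmga1b. Hmga1 took between 51.5% and 53.3% of the counts of the pair in every library. The pair together was at 1196 and 869 CPM with random shRNA, against 757 and 803 CPM with MERVL shRNA. That sum does not depend on how reads were shared out between the copies. It cannot say to which copy the order of the libraries belongs.

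**Figure D2:**
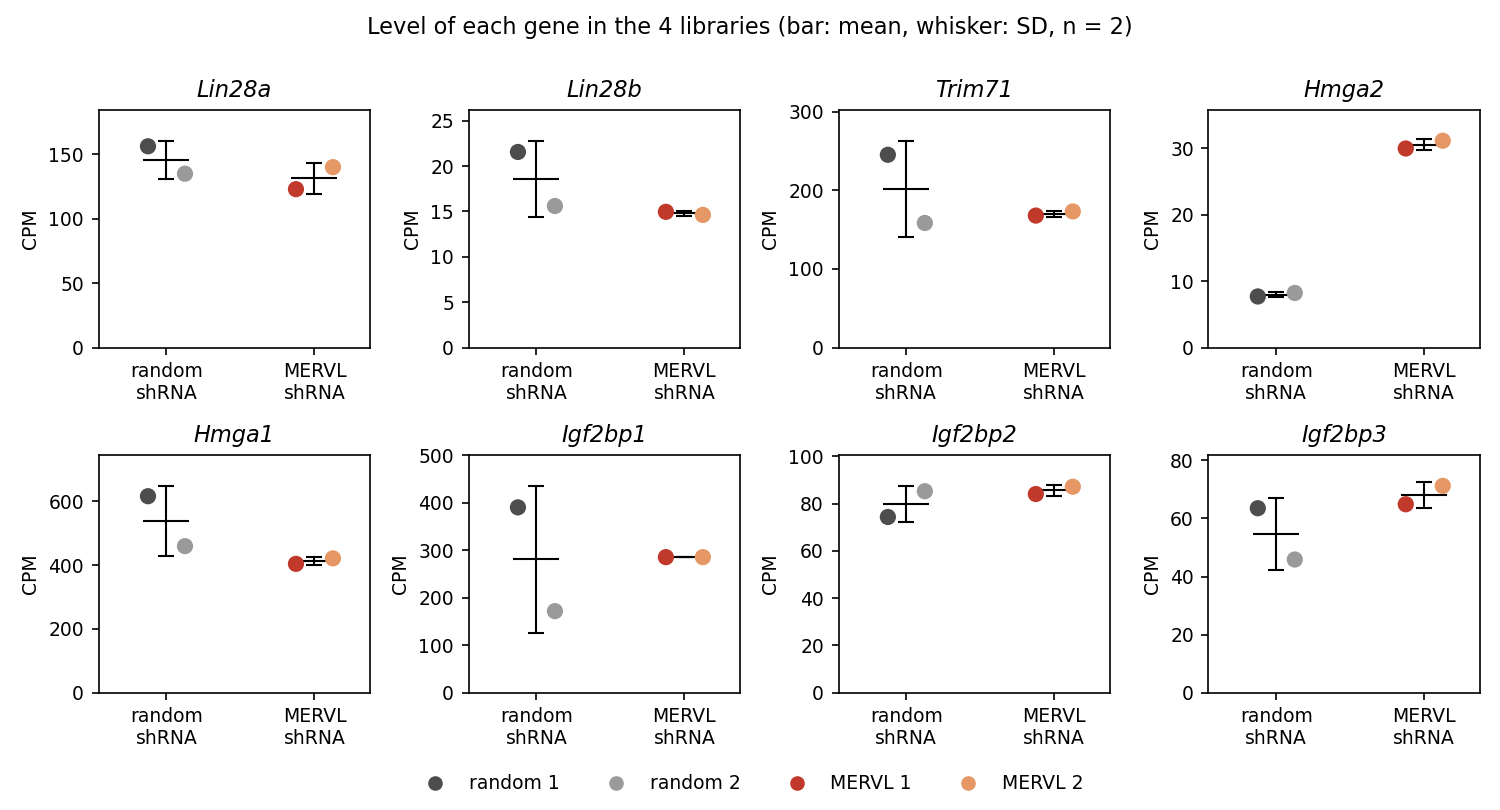
CPM of the 8 genes in each library (points), with the group mean (bar) and SD (whisker, n = 2), each panel on its own linear axis from 0. Hmga2 separates the groups with close replicates, while Igf2bp1, Trim71, Hmga1 and Lin28b are highest in random shRNA replicate 1.

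Lin28a, the main LIN28 protein of naive embryonic stem cells, differed little. It lies on chromosome 4 at 134003330 to 134018841, minus strand. Its values were 156 and 135 CPM with random shRNA, and 123 and 140 CPM with MERVL shRNA. The groups overlapped, and the log2 fold change was -0.15 ± 0.15 (SE), with values from -0.23 to -0.03 when single libraries were left out (-0.03 without random shRNA replicate 1 or MERVL shRNA replicate 1).

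Lin28b, its nuclear and nucleolar relative, was far less abundant and slightly lower with MERVL shRNA. It lies on chromosome 10 at 45376620 to 45486395, minus strand. It stood at 21.6 and 15.6 CPM with random shRNA, and at 14.96 and 14.62 CPM with MERVL shRNA. The groups did not overlap, but random shRNA replicate 2 lay just above MERVL shRNA replicate 1, and the log2 fold change of -0.33 ± 0.21 (SE) was -0.07 without random shRNA replicate 1 and -0.53 without random shRNA replicate 2. These values rest on 186 to 338 estimated counts.

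Trim71 encodes the LIN41 ubiquitin ligase, which represses mRNAs of differentiation. It lies on chromosome 9 at 114507133 to 114564369, minus strand. It was at 245 and 158 CPM with random shRNA, and at 168 and 173 CPM with MERVL shRNA, so the MERVL shRNA values lay between those of the random shRNA libraries. Its log2 fold change was -0.24 ± 0.22 (SE), and it turned to 0.11 without random shRNA replicate 1 and was -0.51 without random shRNA replicate 2.

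The IGF2BP proteins bind and stabilise mRNAs, among them those for IGF2 and MYC. Igf2bp1, on chromosome 11 at 95957163 to 96005940, minus strand, had the widest spread of the 8 genes. It stood at 390.5 and 172 CPM with random shRNA, and at 286 CPM in each MERVL shRNA library. Only 6.48% of genes tested had a larger gap between the random shRNA libraries. The log2 fold change of 0.02 ± 0.35 (SE) was 0.74 without random shRNA replicate 1 and -0.44 without random shRNA replicate 2.

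Igf2bp3, on chromosome 6 at 49085223 to 49214957, minus strand, was at 63.5 and 45.9 CPM with random shRNA, and at 64.9 and 71.2 CPM with MERVL shRNA. Its groups did not overlap, but random shRNA replicate 1 lay just below MERVL shRNA replicate 1. The log2 fold change was 0.31 ± 0.19 (SE). It was 0.57 without random shRNA replicate 1 and 0.11 without random shRNA replicate 2. Igf2bp2, on chromosome 16 at 22059009 to 22163299, minus strand, a gene whose transcription HMGA2 is known to promote, was the steadiest of the family. It was at 74.3 and 85.2 CPM with random shRNA and at 84.0 and 87.1 CPM with MERVL shRNA. Its groups overlapped, with a log2 fold change of 0.10 ± 0.14 (SE), which was 0.01 without random shRNA replicate 1 and 0.22 without random shRNA replicate 2.

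The 2-cell-like markers given above were also highest in random shRNA replicate 1, the library in which Igf2bp1, Trim71, Hmga1, Lin28b and Lin28a were highest. Their part in these values was not tested. Hmga2 was not highest in that library.

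**Figure D3:**
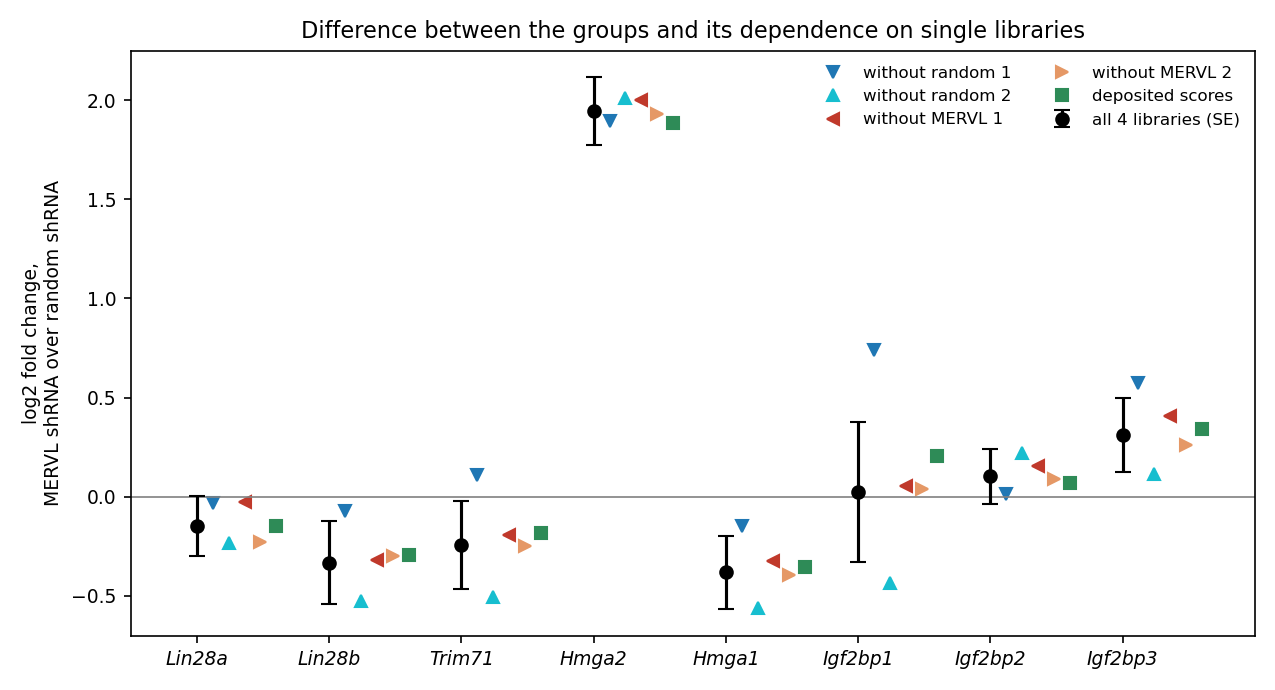
log2 fold change of each gene, MERVL shRNA over random shRNA, from all 4 libraries (black, with SE), without each library in turn (triangles), and from the authors' normalized scores (squares). Hmga2 stays between 1.89 and 2.01, Igf2bp1 runs from -0.44 to 0.74, and Trim71 changes sign without random shRNA replicate 1.

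None of the 8 genes passed the edgeR quasi-likelihood test at a Benjamini-Hochberg adjusted p of 0.05, where 0.00636% of the genes tested passed. At an unadjusted p under 0.05 edgeR took 1 of the 8, Hmga2, beside 11.2% of all genes, while DESeq2 called Hmga2 (1.07% of genes called) and limma-voom called 0 of the 8 (0.00% of genes). Hmga2 and Igf2bp3 were above random shRNA in both MERVL shRNA libraries, an order found for 23.0% of genes. Hmga1 and Lin28b were below it in both, as were 21.8% of genes, and the groups overlapped for Lin28a, Trim71, Igf2bp1 and Igf2bp2, as for 55.2% of genes. Hmga2 alone was called with the replicate number as a block (2.30% of genes called) or with no filter on low counts (2.86%). Without random shRNA replicate 1, 3 of the 8 were called (14.3% of genes), and without random shRNA replicate 2, 5 were (29.3%). Without MERVL shRNA replicate 1 or 2, 0 were called (0.0122% and 0.0120% of genes). The median log2 fold change of the 8 genes was -0.06, beside 0.00 over all genes tested. Because the comparison itself led to these genes, nothing is read from these shares.

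Per kb of annotated exon, the order of levels in random shRNA cells ran from Hmga1 to Hmga2. Hmga1 stood at 253 ± 52.1 CPM per kb, Lin28a at 36.4 ± 3.76, Igf2bp1 at 29.0 ± 16.0, Trim71 at 21.6 ± 6.57, Igf2bp2 at 10.8 ± 1.04, Igf2bp3 at 6.70 ± 1.53, Lin28b at 2.05 ± 0.466 and Hmga2 at 1.17 ± 0.0553 CPM per kb (SD, n = 2). The libraries of Igf2bp1, at 40.3 and 17.7 CPM per kb, spanned the values of Lin28a and most of the range of Trim71, so these neighbours did not differ beyond their spread. In MERVL shRNA cells the order was the same except at its end. There Hmga2, at 4.51 ± 0.121 CPM per kb, stood above Lin28b, at 1.63 ± 0.0269 CPM per kb (SD, n = 2), in both libraries. Lin28a was 17.8-fold above Lin28b on this scale in random shRNA cells.

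The authors' normalized scores gave a different picture of the replicates. Igf2bp1, which lay 2.27-fold apart in the random shRNA libraries by CPM, had scores of 3694 and 3617 there, against 4251 and 4164 with MERVL shRNA. The gap narrowed in this way for each of the 8 genes except Hmga2. Over 15735 genes, the median gap between the random shRNA libraries was 0.28 on log2(CPM + 1) and 0.03 on log2(score + 1), while that between the MERVL shRNA libraries was 0.12 and 0.14. In the scores none of the 8 genes overlapped between the groups. Hmga2, Igf2bp1, Igf2bp2 and Igf2bp3 were higher in both MERVL shRNA libraries (36.0% of genes with a score), and Hmga1, Lin28a, Lin28b and Trim71 were lower (37.7%). Hmga2 had scores of 128 and 106 with random shRNA and 423 and 444 with MERVL shRNA, and a log2 fold change of 1.89 ± 0.11 (SE) on the log2(score + 1) scale. Trim71 had 2788 and 2841 against 2453 and 2505, and -0.18 ± 0.03 on that scale. A limma fit to the scores called 6 of the 8 genes (27.7% of genes with a score), all but Lin28a and Igf2bp2. How the scores were made was not stated with the files used here, so the small spread within random shRNA in them cannot be taken as replicate error.

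**Figure D4:**
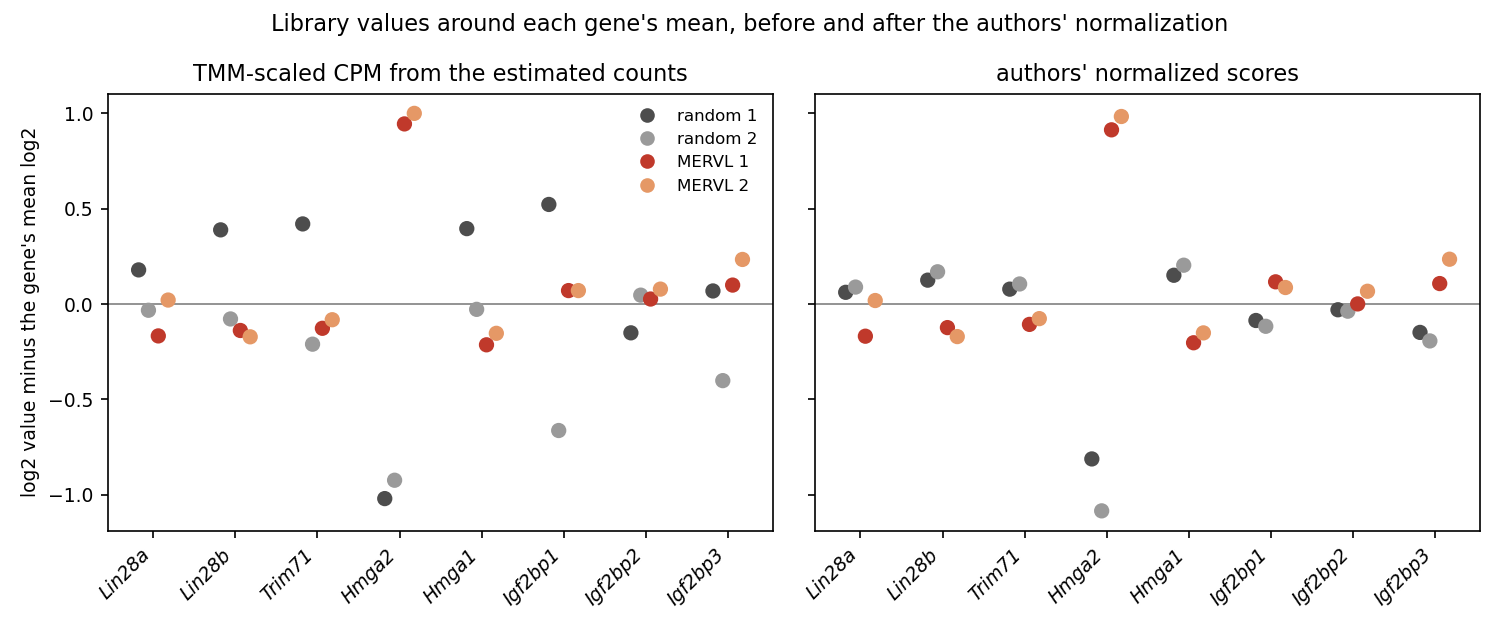
log2 value of each library minus the gene's mean over the 4 libraries, for CPM (left) and for the authors' normalized scores (right). The random shRNA libraries (black and grey) lie apart for Igf2bp1, Trim71 and Hmga1 on the left and together on the right, while Hmga2 separates the groups in both.

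Genes with the profile most like that of Hmga2 were sought over the 4 libraries, by Euclidean distance between log2 CPM values centred on each gene's mean, among 10291 genes with a mean of at least 5 CPM. The nearest were Stmn3, a stathmin that acts on microtubules, at 0.48, the POU factor Pou2f3 at 0.60, the neural factor Sox1 at 0.61, the ketone body dehydrogenase relative Bdh2 at 0.63 and the calcium pump Atp2a3 at 0.63. Pou2f3 was at 19.97 and 15.2 CPM with random shRNA and at 44.7 and 51.6 CPM with MERVL shRNA. Sox1 was at 5.23 and 3.27 CPM with random shRNA and at 12.9 and 13.4 CPM with MERVL shRNA; it is also 1 of the 6 neural progenitor markers, which summed to 30.4 and 19.2 CPM with random shRNA, against 23.9 and 24.3 CPM with MERVL shRNA. None of these 5 passed edgeR (adjusted p from 0.161 to 0.294) or limma-voom. DESeq2, which called 1.07% of all genes, called all 5 higher, with adjusted p from 2.43e-11 for Stmn3 to 0.0393 for Bdh2. The 5 genes were picked by these same values, so nothing is read from their calls. With 4 libraries this likeness mainly says that both MERVL shRNA values were higher by a similar factor. The other genes of the axis lay at distances of 1.66 (Igf2bp3) to 2.33 (Hmga1) from Hmga2. Of all genes tested, 15.9% were nearer to Hmga2 than Igf2bp3 was, and 83.3% were nearer than Hmga1.

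The proteins that make and destroy let-7 showed small differences. All 19 genes of that list were tested. In edgeR 0 passed in either direction (0.00636% of all genes), and 0 had an unadjusted p under 0.05 (11.2%). DESeq2 and limma-voom called 0 (1.07% and 0.00% of all genes). With 19 genes, nothing is read from these counts. The median log2 fold change was 0.07, beside 0.00 for all genes, with 4 genes above and 1 below random shRNA in both MERVL shRNA libraries (23.0% and 21.8% of all genes). Among the 4 genes with the smallest p, the Argonautes Ago1 and Ago2 had log2 fold changes of 0.24 ± 0.13 and 0.26 ± 0.16, the RNA-binding protein gene Hnrnpa1 had -0.23 ± 0.15, and Dis3l2, the nuclease that degrades uridylated let-7 precursor, had 0.25 ± 0.18 (SE; edgeR adjusted p from 0.484 to 0.591). The uridylyl transferase genes Tut4 and Tut7 had -0.07 ± 0.14 and 0.05 ± 0.15, and the processing enzymes Drosha and Dicer1 had -0.05 ± 0.18 and 0.08 ± 0.15 (SE).

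Other genes described as let-7 targets had no common direction. Of 27 listed, 26 were tested, 15 of them with a 7-base match in the longest 3′ UTR. In edgeR 0 passed (0.00636% of all genes), and at an unadjusted p under 0.05 there were 2 higher and 2 lower (4.87% and 6.35%). DESeq2 and limma-voom called 0 (1.07% and 0.00% of all genes). The median log2 fold change was -0.04. In fits that filtered low counts anew, it was 0.14 without random shRNA replicate 1 or 0.05 without MERVL shRNA replicate 1. The cyclin Ccnd2, which has no 7-base match there, was at 6.89 and 3.19 CPM with random shRNA and 11.8 and 12.4 CPM with MERVL shRNA (log2 fold change 1.25 ± 0.37, edgeR adjusted p = 0.329). The zinc finger gene Plag1, also without a match, had 0.90 ± 0.34 (adjusted p = 0.341). On the other side the receptor gene Tgfbr1, with 1 match, had -0.49 ± 0.17 (edgeR adjusted p = 0.329). Nr6a1, an orphan receptor gene with 8 matches, the most of any gene, was at 73.3 and 55.6 CPM with random shRNA and 69.8 and 70.4 CPM with MERVL shRNA.

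Across all genes tested, those with 1 or more, or 2 or more, let-7 matches had medians close to that of the rest; no test of a difference was made. Leaving out the 8 genes, 1404 genes with a 7-base match had a median log2 fold change of 0.00, 484 with an 8-base match one of -0.01 and 169 with 2 or more matches one of -0.01. The 7 genes with 4 or more matches had a median of 0.19, with 3 above random shRNA in both MERVL shRNA libraries and 0 below it. Of all genes tested with a 3′ UTR, 22.7% were above and 22.8% below. The 11936 genes without a match had a median of -0.01. Both MERVL shRNA libraries lay above random shRNA for 23.8% of genes with an 8-base match and for 22.5% of those without a 7-base match, and below it for 22.5% and 22.8%. The median 3′ UTR was 2426 nt with an 8-base match and 1023 nt without a match, so the sets differ in length as well. Closer in length, at a median of 2355 nt, were 1775 genes with the 7-base match reversed, the 8 genes left out. Their median log2 fold change was 0.01, with 25.0% above random shRNA and 20.9% below it.

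**Figure D5:**
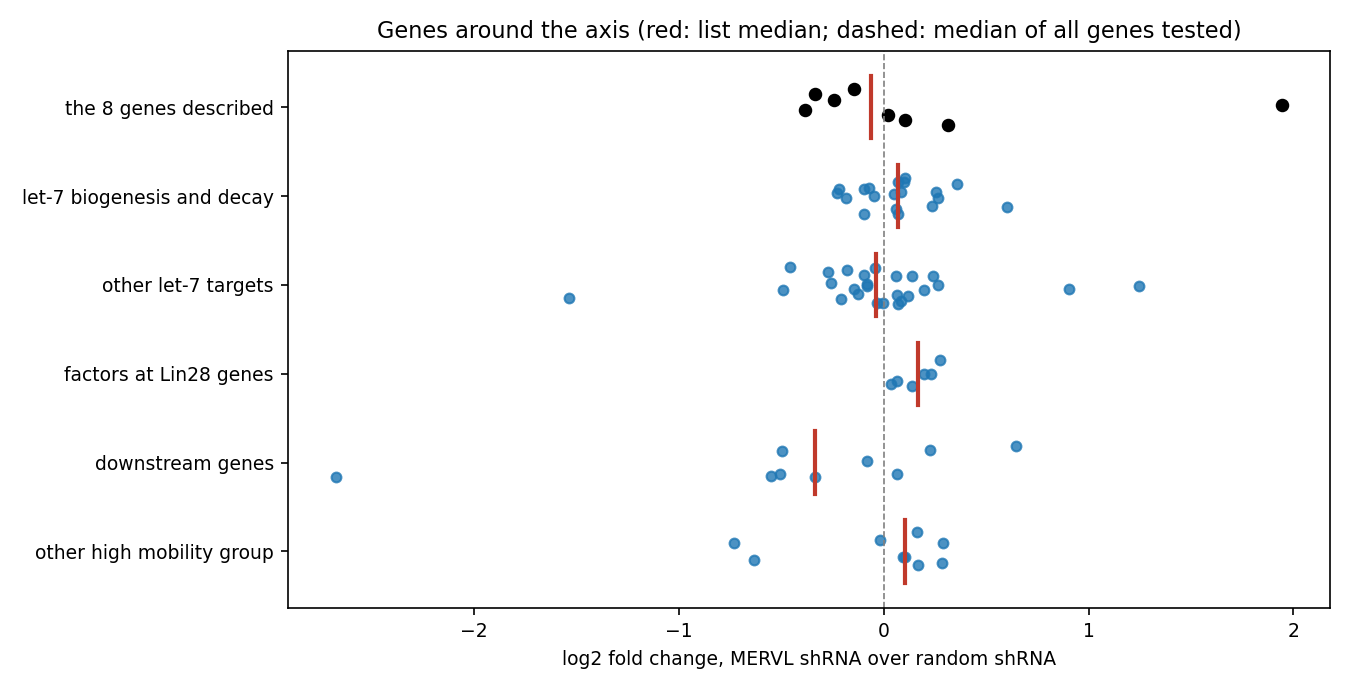
log2 fold change of single genes (points), MERVL shRNA over random shRNA, for the 8 genes and 5 lists around them, with list medians (red) and the median of all genes tested (dashed). Hmga2, at 1.95, lies beyond every point of these lists on the higher side.

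Factors known to bind Lin28 genes in embryonic stem cells were close to level. All 6 had a positive log2 fold change, with a median of 0.17, and 2 were above random shRNA in both MERVL shRNA libraries (23.0% of all genes). The median was 0.33 without random shRNA replicate 1 and 0.02 without random shRNA replicate 2. None passed edgeR (0.00636% of all genes), and 0 had an unadjusted p under 0.05 (11.2%). DESeq2 and limma-voom called 0 (1.07% and 0.00% of all genes). With 6 genes, nothing is read from these counts. Pou5f1 had a log2 fold change of 0.23 ± 0.16, Tcf7l1 one of 0.27 ± 0.23, Sox2 one of 0.20 ± 0.17 and Mycn one of 0.06 ± 0.14 (SE; edgeR adjusted p from 0.604 to 0.879).

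Genes reported downstream of the 8 had a median log2 fold change of -0.34 over 9 genes. It was 0.04 without random shRNA replicate 1 and -0.17 without random shRNA replicate 2. Those fits filtered low counts anew, so their medians need not cover all 9 genes and the change of sign is not read. In edgeR 0 passed (0.00636% of all genes), and at an unadjusted p under 0.05 there were 0 higher and 2 lower (4.87% and 6.35%). DESeq2 and limma-voom called 0 (1.07% and 0.00% of all genes). Cdkn2a, the Ink4a and Arf locus that HMGA2 is known to hold down in neural stem cells, was at 15.6 and 18.5 CPM with random shRNA and 11.7 and 12.3 CPM with MERVL shRNA (log2 fold change -0.51 ± 0.19, edgeR adjusted p = 0.342). Both MERVL shRNA libraries were below random shRNA for Cdkn2a, as for 21.8% of all genes. Of the 9 genes, 1 was above in both, 3 were below and 5 overlapped (23.0%, 21.8% and 55.2% of all genes). Junb had -0.49 ± 0.25, Igf2 0.65 ± 0.50 at under 2 CPM in every library, and Cd44 -2.67 ± 0.68 at under 1 CPM in every library (SE; edgeR adjusted p of 0.449, 0.639 and 0.329). Cdkn1a, an mRNA that TRIM71 is known to repress, had 0.06 ± 0.18 (SE).

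Of the let-7 host genes listed, 2 were tested. Wdr82, whose transcription unit holds let-7g, was at 202 and 210.4 CPM with random shRNA and at 266 and 293 CPM with MERVL shRNA (log2 fold change 0.44 ± 0.14, edgeR adjusted p = 0.329). It did not pass in DESeq2 or limma-voom either. Huwe1, which holds let-7f-2 and miR-98, had -0.01 ± 0.18 (SE).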

How the data were processed

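RNA-seq was made from 2 random shRNA and 2 MERVL shRNA libraries, grouped and numbered by the sample titles. Per the submitters' processing notes, Trim Galore, HISAT2 and mm10 were used; their versions, the counting program and any use of strand were not stated with the files used here. The authors deposited estimated counts for 45773 features, of which 43496 are Ensembl genes and 2277 MERVL copies. Between 19.1% and 20.8% of these estimated counts were not whole in a library. The authors also deposited a normalized score for 17823 features, by a method not given in the sources used here. All 8 columns were mapped.

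Estimated counts were rounded and fitted with the edgeR 4.0.16 quasi-likelihood F test (R 4.3.3), with TMM scaling. After filterByExpr there were 16353 features, 15735 of them genes. Tests were 2-sided with Benjamini-Hochberg adjustment over all features and a threshold of 0.05, and SEs came from the F statistic. CPM are TMM-scaled. Symbols, positions, exon lengths and 3′ UTRs came from GENCODE M21 (GRCm38, the assembly also called mm10) and matched about 42420 gene rows. The let-7 sequences came from RefSeq (GRCm38.p6). Scores were fitted with limma 3.58.1 as log2(score + 1), keeping features whose mean score was 1 or more. The 16 alternatives were DESeq2 1.42.0, limma-voom, other scalings, filters and priors, a replicate block, the scores, and leaving out each library. Only the main edgeR fit was tried on simulated data. In those data all libraries varied alike, unlike the random shRNA libraries here.

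The 8 genes and the lists were chosen with earlier results of these data known. Besides the 8 genes, the text names the up to 4 genes with the smallest p in each list (1 such gene is not reported here), any called, and the 5 genes nearest to Hmga2 with a mean of at least 5 CPM and no placeholder symbol. Tut4, Tut7, Drosha, Dicer1, Nr6a1, Cdkn1a and Huwe1 were added for their roles, and single marker genes for their values, after values were seen.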

Additional observations from a re-analysis of the deposited data

How the results depend on the processing

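Hmga2 kept a log2 fold change between 1.89 and 2.01 in all 16 alternatives. Hmga1, Lin28a, Lin28b, Igf2bp2 and Igf2bp3 kept their sign in all 16, while Trim71 changed sign in 1 and Igf2bp1 in 2 (-0.03 with library totals only, and -0.44 without random shRNA replicate 2); the cause was not tested. The number of the 8 genes called was 0 with edgeR, RLE scaling, library totals, genes only, a CPM filter, a robust prior and limma-voom. It was 1, Hmga2, with DESeq2, no filter or a replicate block, 6 with the scores, which called Hmga2, Igf2bp1 and Igf2bp3 higher and Hmga1, Lin28b and Trim71 lower, and 0 to 5 with a library left out. Without random shRNA replicate 1, Hmga2, Igf2bp1 and Igf2bp3 were called higher; without replicate 2, Hmga2 was higher and Hmga1, Lin28b, Trim71 and Igf2bp1 lower, so Igf2bp1 was called in opposite directions; here the lone library is assumed to vary like the other group. Over all genes the count was 1 with edgeR, 168 with DESeq2, 0 with limma-voom, 737 with no filter, 362 with a replicate block, 4739 with the scores (4663 with a pseudocount of 0.1) and 2 to 4800 with a library left out. Same-numbered libraries deviated together with a correlation of 0.04 across genes, and the labels do not say what a number shares. The median of the other let-7 targets changed sign in 5 of 16 alternatives, and those of the let-7 machinery and of the downstream genes in 1 each. Fits with a library left out or another filter need not hold the same list genes, so a change of sign can come from which genes passed. Only 2 libraries per group, and 98 to 477 counts for Hmga2, limit these values.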

Other observations

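Other high mobility group genes did not share the pattern of Hmga2. All 9 listed were tested, and 0 passed edgeR, while at an unadjusted p under 0.05 there were 0 higher and 2 lower (4.87% and 6.35% of all genes); limma-voom called 0 and DESeq2, which called 1.07% of all genes, called 1, Hmgn1, lower (adjusted p = 0.0311). Hmgn1, a nucleosome-binding protein gene, was at 839 and 714 CPM with random shRNA and at 488 and 515 CPM with MERVL shRNA (log2 fold change -0.63 ± 0.16, edgeR adjusted p = 0.329). Its groups did not overlap, with both MERVL shRNA libraries below random shRNA, as for 21.8% of all genes. Of the 9 genes, 3 were above in both and 2 were below (23.0% and 21.8% of all genes). Hmgn3 was at 10.8 and 10.9 CPM with random shRNA and at 7.35 and 5.78 CPM with MERVL shRNA (-0.73 ± 0.24, edgeR adjusted p = 0.329). Hmgb1 and Hmg20b had 0.29 ± 0.15 and 0.28 ± 0.13 (edgeR adjusted p of 0.451 and 0.405).

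Genes on the opposite strand that overlap the 8 genes were looked at because it is not stated whether counting used strand. Antisense to Hmga2, 1700006J14Rik was at 0.797 and 2.35 CPM with random shRNA and at 1.29 and 0.922 CPM with MERVL shRNA, and 9230105E05Rik was under 0.43 CPM in each library. Neither had the order of libraries seen for Hmga2. Gm29202, antisense to Igf2bp1, was at 0.574 and 0.503 CPM with random shRNA and at 1.01 and 1.24 CPM with MERVL shRNA. Malsu1, which overlaps Igf2bp3, was at 61.6 and 62.8 CPM and at 62.7 and 69.4 CPM. Gm13061, which overlaps Lin28a, was at 3.16 and 2.43 CPM with random shRNA and at 3.58 and 4.72 CPM with MERVL shRNA. AI413582, which overlaps Hmga1, was at 5.67 and 8.96 CPM and at 6.265 and 6.255 CPM. C130032M10Rik, which overlaps Trim71, was at most at 0.377 CPM in any library.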
